A study of Mus musculus with 16 samples.

Results

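This report describes 8 genes that are used as signs of beta cell dedifferentiation or of an endocrine progenitor state in mouse islets, *Aldh1a3*, *Neurog3*, *Sox4*, *Gast*, *Fev*, *Myc*, *Mycl* and *Cd81*. They were chosen by symbol, through the Ensembl mouse gene identifiers of the count table. All 8 were found among its 52636 genes, and all 8 were among the 18587 genes with enough reads to be tested. Islets came from male mice aged 12 weeks, with the strain given as C57BL/6JRj in the labels and as C57BL/6NRj in the methods of the study. Pools of islets from several mice were cultured for 10 days in 4 conditions with 4 libraries each: untreated control, IL-1β at 50 pg/mL, butyrate at 0.2 mM, and IL-1β with butyrate at these same doses. Each condition of an experiment used 500 islets, so a library reports on a mixture of endocrine and other islet cells from pooled animals.

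During development of the pancreas, a short pulse of NEUROG3 commits progenitor cells to the endocrine lineage, with SOX4 and later FEV acting in the cells on that path. Adult beta cells hold NEUROG3 below its level in that pulse. In models of diabetes, beta cells that lose their identity can gain ALDH1A3, an enzyme that makes retinoic acid, and gastrin, a hormone of the fetal islet and the stomach. MYC and MYCL are related transcription factors of growth and proliferation. CD81 is a tetraspanin of the cell surface that has been used as a marker of immature and stressed beta cells.

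The promoters of 3 of the genes are shown because the mean levels and calls of these genes differed. *Neurog3* and *Cd81* were called against control in every treatment, *Neurog3* with its highest mean with IL-1β and *Cd81* in the combination. *Gast* was called against control only with IL-1β and butyrate together. The difference between the combination and IL-1β alone was not called for *Neurog3* or *Gast*. Each sequence is the 250 bases before the annotated RefSeq start, from RefSeq on build GRCm38.p6, written 5′ to 3′ on the strand of the gene. Capitals mark matches, on either strand, to a TATA box (TATAAA) or a GC box (GGGCGG). An E-box (CACGTG), an AP-1 motif (TGANTCA) and an NF-κB motif were also searched. The *Neurog3* window lies at chr10:62132840-62133089, plus strand, the *Gast* window at chr11:100334157-100334406, plus strand, and the *Cd81* window at chr7:143052500-143052749, plus strand.
*Neurog3*: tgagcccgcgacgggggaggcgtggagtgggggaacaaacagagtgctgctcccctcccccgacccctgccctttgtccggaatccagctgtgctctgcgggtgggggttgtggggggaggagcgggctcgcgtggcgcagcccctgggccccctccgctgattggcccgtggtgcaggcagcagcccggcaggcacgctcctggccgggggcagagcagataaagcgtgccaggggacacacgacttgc
*Gast*: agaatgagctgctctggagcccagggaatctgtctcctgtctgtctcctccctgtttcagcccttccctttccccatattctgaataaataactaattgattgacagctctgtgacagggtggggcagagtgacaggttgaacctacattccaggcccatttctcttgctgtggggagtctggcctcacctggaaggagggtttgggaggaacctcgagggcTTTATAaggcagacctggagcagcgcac
*Cd81*: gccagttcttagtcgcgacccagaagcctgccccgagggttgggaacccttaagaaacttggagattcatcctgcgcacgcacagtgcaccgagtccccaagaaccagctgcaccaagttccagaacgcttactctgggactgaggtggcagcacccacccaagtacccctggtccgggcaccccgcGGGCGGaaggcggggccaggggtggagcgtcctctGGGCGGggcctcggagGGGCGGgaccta

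The *Cd81* window held 3 GC boxes, 63, 28 and 12 bases before the start, and the *Gast* window held 1 TATA box match, 28 bases before it. The *Neurog3* window held none of the 5 motifs, with a GC content of 71.2%, against 65.6% for *Cd81* and 53.2% for *Gast*. Among 32851 promoter windows of the same length, 32.7% held a GC box and 12.4% held a TATA box match. The table of promoters held 6 of the 8 genes. The windows of *Fev* (2 GC boxes) and *Mycl* (1 GC box and 1 TATA box match) also held matches, and that of *Sox4* held none.

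Sequencing gave between 18635943 and 25955943 counts per library (median 22184715). Values are given as CPM, a count divided by the library's total scaled by TMM and written per 1e6 counts. A gene was called when its adjusted p in edgeR's quasi-likelihood test was under 0.01, the threshold of the study. No gene of the 8 was at the floor of 3 counts: each had at least 4 counts in every library. The lowest counts were those of *Gast* (12 to 91) and *Mycl* (14 to 45), so their values carry the most counting error. Labels give no statement of separate animals for each library, so p-values measure the spread between these pools of islets.

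Per kilobase of exon, *Cd81* was the most abundant of the 8 genes. In control islets it reached 20.5 ± 1.35 CPM per kb (SD, n = 4). *Fev* (5.23 ± 0.557 CPM per kb), *Sox4* (4.85 ± 0.44) and *Aldh1a3* (3.99 ± 1.11) came next, and their libraries overlapped with those of the neighbour in this order. *Neurog3* (3.39 ± 0.212 CPM per kb) also overlapped with *Aldh1a3*. *Gast* (2.17 ± 0.455 CPM per kb) and *Myc* (1.69 ± 0.144) overlapped, and *Mycl* was lowest at 0.219 ± 0.0479 CPM per kb, below every other gene. In butyrate-treated islets the order changed: *Aldh1a3* stood second at 14.6 ± 5.59 CPM per kb, above all libraries of *Sox4* (4.81 ± 0.368). *Fev* (3.32 ± 0.341) had a lower mean than *Neurog3* (4.27 ± 0.489), with overlapping ranges. Over all libraries *Cd81* lay at percentile 95 of the tested genes per length and *Mycl* at 15.8. *Sox4* (percentile 61.8), *Neurog3* (60.5) and *Fev* (58) lay between these.

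**Figure D1:**
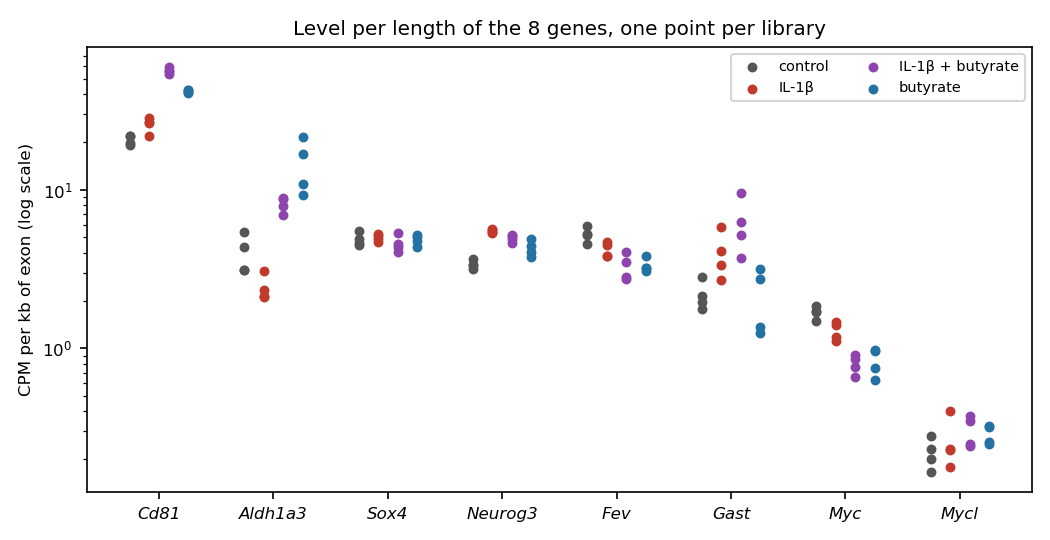
Level of the 8 genes in CPM per kilobase of exon on a log axis, with 1 point per library, coloured by condition and ordered by mean level. *Cd81* lay above the other genes in every condition and *Mycl* below them, and *Aldh1a3* spread most between conditions.

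*Neurog3* was significantly upregulated by IL-1β and stayed above control when butyrate was added. Control libraries had 6.16, 5.59, 5.64 and 5.31 CPM, and IL-1β libraries had 9.41, 9.10, 8.86 and 9.38 CPM. All 4 IL-1β libraries were above all control libraries. The log2 fold change was 0.70 (SE 0.09, FDR 7.79e-07), a 1.62-fold rise. This was bulk islet RNA, in which a change in the number of cells of a type cannot be told apart from a change in RNA per cell. The duct markers, a cell type that can hold progenitor genes, had a summed level of 372 to 399 CPM in control and 543 to 634 CPM in IL-1β libraries, with 3 of 6 tested markers raised and none at the floor, and their part in this result was not tested. Their sum was 553 to 847 CPM with IL-1β and butyrate, where 2 of 6 were raised against control, and 357 to 400 CPM with butyrate alone, where none was called. Most of the sum in control was *Krt7*, at 336 ± 13 CPM, beside 394 ± 28 with IL-1β (SD, n = 4). *Spp1* averaged 11.9 ± 2.7 CPM in control, 158 ± 46 with IL-1β, 348 ± 110 with the combination and 27.7 ± 12 with butyrate. *Sox9*, another of these markers, was not raised by IL-1β, at 2.04 ± 0.3 CPM in control and 1.81 ± 0.38 with IL-1β.

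Butyrate alone gave 8.14, 6.26, 6.74 and 7.44 CPM of *Neurog3*. Again no library overlapped with control, although the lowest, 6.26, was close to the highest control library, 6.16. The log2 fold change was 0.33 (SE 0.09), and its FDR of 0.00731 rose above the threshold when control replicate 2 (0.0213), control replicate 3 (0.0189), control replicate 4 (0.03), butyrate replicate 1 (0.0432) or butyrate replicate 4 (0.0264) was left out. The call was also lost with DESeq2 (adjusted p 0.0102), with library size alone (0.0125), with only the libraries compared (0.0142) and without the filter on low counts (0.0305). With IL-1β and butyrate together the libraries had 8.61, 7.77, 8.54 and 8.14 CPM. These were above control (log2 fold change 0.54, FDR 1.84e-05) and all below the lowest IL-1β library, but the difference from IL-1β alone did not pass the test (log2 fold change -0.15, FDR 0.184). Against butyrate alone the ranges overlapped, and the log2 fold change of 0.21 was not called (FDR 0.0938).

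The exons of *Neurog3* (ENSMUSG00000044312, chr10:62133090-62134763 on GRCm38) overlap over 273 bases, 16.3% of their length, with those of *Fam241b* on the opposite strand. The strand setting of the counting is not given in the sources used here, so reads in this stretch cannot be told apart. *Fam241b* had 414 to 504 counts in control and 507 to 717 in IL-1β libraries, a log2 fold change of 0.41 (FDR 1.79e-05), and with butyrate alone its log2 fold change was -0.07 (FDR 0.472). In the combination, *Fam241b* was raised against control (0.26, FDR 0.00177) and against butyrate alone (0.34, FDR 0.000328). It was not called against IL-1β alone (-0.15, FDR 0.0843). Its part in the *Neurog3* counts was not tested.

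*Fev*, a transcription factor of endocrine precursors and of serotonin neurons, was downregulated by butyrate. Control libraries had 9.57, 8.46, 8.41 and 7.36 CPM, and butyrate libraries had 6.18, 4.93, 5.17 and 5.21 CPM. The groups did not overlap, and the log2 fold change was -0.65 (SE 0.12, FDR 0.000106), a 1.57-fold lower level. In the presence of IL-1β, butyrate libraries had 4.43, 4.54, 5.69 and 6.5 CPM, also below every control library (log2 fold change -0.68, FDR 2.98e-05). IL-1β alone gave 7.60, 6.13, 6.17 and 7.22 CPM. That range overlapped with control and its difference did not pass the threshold (log2 fold change -0.31, FDR 0.0435). The combination against IL-1β alone gave -0.37 (FDR 0.0217), and this became a call (FDR 0.00369) without replicate 4 of IL-1β with butyrate, its highest library. It was also a call with a replicate block in the fit (FDR 0.00788) and without the filter on low counts (FDR 0.00742).

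*Sox4*, a transcription factor that acts with NEUROG3 in endocrine differentiation, did not differ detectably in any comparison. Mean levels were 23.3 ± 2.11 CPM in control, 23.9 ± 1.21 with IL-1β, 22.0 ± 2.68 with IL-1β and butyrate, and 23.1 ± 1.76 with butyrate (SD, n = 4 each). The 16 libraries ran from 19.4 to 26.2 CPM, and every pair of groups overlapped. The 95% interval of the log2 fold change was -0.11 to 0.20 for IL-1β and -0.17 to 0.15 for butyrate against control, so larger differences lie outside these intervals. Its exons (ENSMUSG00000076431) overlap over 2616 bases, 54.6% of their length, with *Gm26735* on the opposite strand, which was listed at 0 counts in every library.

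*Myc*, the proto-oncogene that drives growth and cell division, was downregulated by butyrate with and without IL-1β. Control libraries had 4.06, 4.67, 4.59 and 5.01 CPM, and butyrate libraries had 2.61, 2.04, 1.72 and 2.67 CPM. IL-1β libraries had 3.0, 3.99, 3.21 and 3.79 CPM, and those with IL-1β and butyrate had 2.31, 1.78, 2.06 and 2.46 CPM. Both groups with butyrate lay entirely below both groups without it. Butyrate lowered *Myc* 2.02-fold against control (log2 fold change -1.01, SE 0.15, FDR 7.75e-06) and 1.63-fold against IL-1β alone (-0.71, SE 0.15, FDR 0.00087). IL-1β libraries were also all below control, with a log2 fold change of -0.38 that did not pass the threshold (FDR 0.0441).

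Markers of proliferating cells moved with *Myc*. Their summed level was 58.3 to 145 CPM in control and 11.6 to 23.8 CPM with butyrate, with 6 of 6 markers lowered and a median log2 fold change of -2.66. It was 45.5 to 89.5 CPM with IL-1β and 11.2 to 25.1 CPM with IL-1β and butyrate, where 6 of 6 were also lowered against IL-1β (median -2.05). None of these markers was at the floor, and the part of proliferating cells in the *Myc* result was not tested.

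*Mycl*, a relative of *Myc* that has been linked to endocrine cell expansion, passed no test. Mean levels were 0.885 ± 0.193 CPM in control, 1.05 ± 0.394 with IL-1β, 1.22 ± 0.268 with IL-1β and butyrate, and 1.16 ± 0.162 with butyrate (SD, n = 4 each). All groups overlapped. At 14 to 45 counts per library, the 95% interval of the log2 fold change was wide, -0.25 to 0.82 for IL-1β and -0.16 to 0.91 for butyrate against control. A difference of nearly 1 log2 unit is therefore still inside the interval, and absence of a change cannot be read from it.

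*Aldh1a3*, the retinaldehyde dehydrogenase, was strongly upregulated by butyrate. Control libraries had 14.3, 14.3, 20.2 and 24.9 CPM, and butyrate libraries had 49.8, 43.0, 78.0 and 98.7 CPM. The groups did not overlap, and the butyrate libraries spread widely among themselves. The log2 fold change was 1.87 (SE 0.27, FDR 0.000161), a 3.66-fold rise. IL-1β libraries had 9.82, 14.2, 9.74 and 10.8 CPM, and libraries with IL-1β and butyrate had 32.1, 41.0, 40.4 and 36.5 CPM. Butyrate thus raised *Aldh1a3* 3.37-fold in the presence of IL-1β too (log2 fold change 1.75, SE 0.29, FDR 0.000607).

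With IL-1β alone *Aldh1a3* was lower than control in every library, 11.1 ± 2.08 against 18.4 ± 5.12 CPM (SD, n = 4), but the highest IL-1β library, 14.2, was close to the lowest control library, 14.3, and the difference did not pass the test (log2 fold change -0.73, FDR 0.114). The combination lay below butyrate alone in all libraries, 37.5 ± 4.12 against 67.4 ± 25.8 CPM (log2 fold change -0.85, FDR 0.0277), and DESeq2 called that difference (adjusted p 0.00804), as did edgeR without butyrate replicate 2 (FDR 0.00811). Against control, the combination was raised 2.03-fold (log2 fold change 1.02, SE 0.27, FDR 0.0091). That call was lost when a single library was left out in 12 of 16 cases, with FDR up to 0.0319, reached without control replicate 2. The 12 were control replicates 1 to 3, all IL-1β and all combination libraries, and butyrate replicate 3. The call was also lost without the filter on low counts (FDR 0.0203).

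*Gast*, which encodes gastrin, was upregulated where IL-1β and butyrate were combined. The combination libraries had 1.71, 2.89, 2.37 and 4.38 CPM, and control libraries had 0.98, 1.29, 0.812 and 0.899 CPM. No library overlapped, and the log2 fold change was 1.48 (SE 0.31, FDR 0.000486), a 2.8-fold rise. Butyrate alone gave 1.26, 0.577, 0.627 and 1.46 CPM, overlapping with control (log2 fold change -0.02, 95% interval -0.77 to 0.73, FDR 0.979). IL-1β alone gave 1.55, 2.68, 1.24 and 1.88 CPM, 1 of which lay within the control range. Its log2 fold change of 0.88 did not pass the threshold (FDR 0.0509). It did pass without the filter on low counts (FDR 0.00121) and with a replicate block in the fit (FDR 0.00968). The combination was 2.83-fold above butyrate alone (log2 fold change 1.5, SE 0.31, FDR 0.000987), and FDR was 0.0114, no longer a call, when only those 8 libraries were fitted. Against IL-1β alone the log2 fold change was 0.60 (FDR 0.114), so the combination was not shown to exceed IL-1β.

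*Cd81* responded to all 3 treatments, with the smallest error of the 8 genes. Control libraries had 55.2, 62.4, 62.4 and 56.3 CPM, and IL-1β libraries had 62.9, 82.0, 76.8 and 76.2 CPM. The lowest IL-1β library barely exceeded the highest control library, and the log2 fold change was 0.34 (SE 0.06, FDR 0.000116). Butyrate libraries had 117, 118, 122 and 121 CPM, 2.03-fold above control (log2 fold change 1.02, SE 0.06, FDR 1.62e-12). Libraries with IL-1β and butyrate had 155, 162, 170 and 162 CPM. These exceeded every library of the other conditions, 2.18-fold above IL-1β alone (log2 fold change 1.12, FDR 1.8e-13) and 1.35-fold above butyrate alone (log2 fold change 0.44, FDR 1.48e-06). On the log2 scale, the butyrate effect with and without IL-1β differed by 0.10, with a 95% interval of -0.07 to 0.28. The exons of *Cd81* (ENSMUSG00000037706) overlap over 104 bases, 3.61% of their length, with *R74862* on the opposite strand, which had 45 to 85 counts.

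Because immune cells carry CD81 as well, macrophage markers are given beside it. Against control, IL-1β raised 9 of 10 and lowered 1 (median log2 fold change 2.22), the combination raised 7 and lowered 1 (median 1.52), and butyrate alone raised none and lowered 1 (median -0.47). With butyrate added to IL-1β, 5 were lowered and none raised (median -0.68). *Csf1r*, a receptor of macrophages, averaged 3.19 ± 0.66 CPM in control, 14.5 ± 3.9 with IL-1β, 10.5 ± 4.1 with the combination and 1.89 ± 0.49 with butyrate (SD, n = 4 each). The summed level was 131 to 143 CPM in control, 188 to 237 with IL-1β, 102 to 142 with the combination and 86.8 to 107 with butyrate alone, with none of the markers at the floor. Most of the sum in control was *C1qa*, which went against the other markers where they were raised, at 111 ± 11 CPM in control, 79.7 ± 12 with IL-1β, 51.2 ± 5.5 with the combination and 77.6 ± 11 with butyrate. The part of macrophages in the *Cd81* results was not tested.

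**Figure D2:**
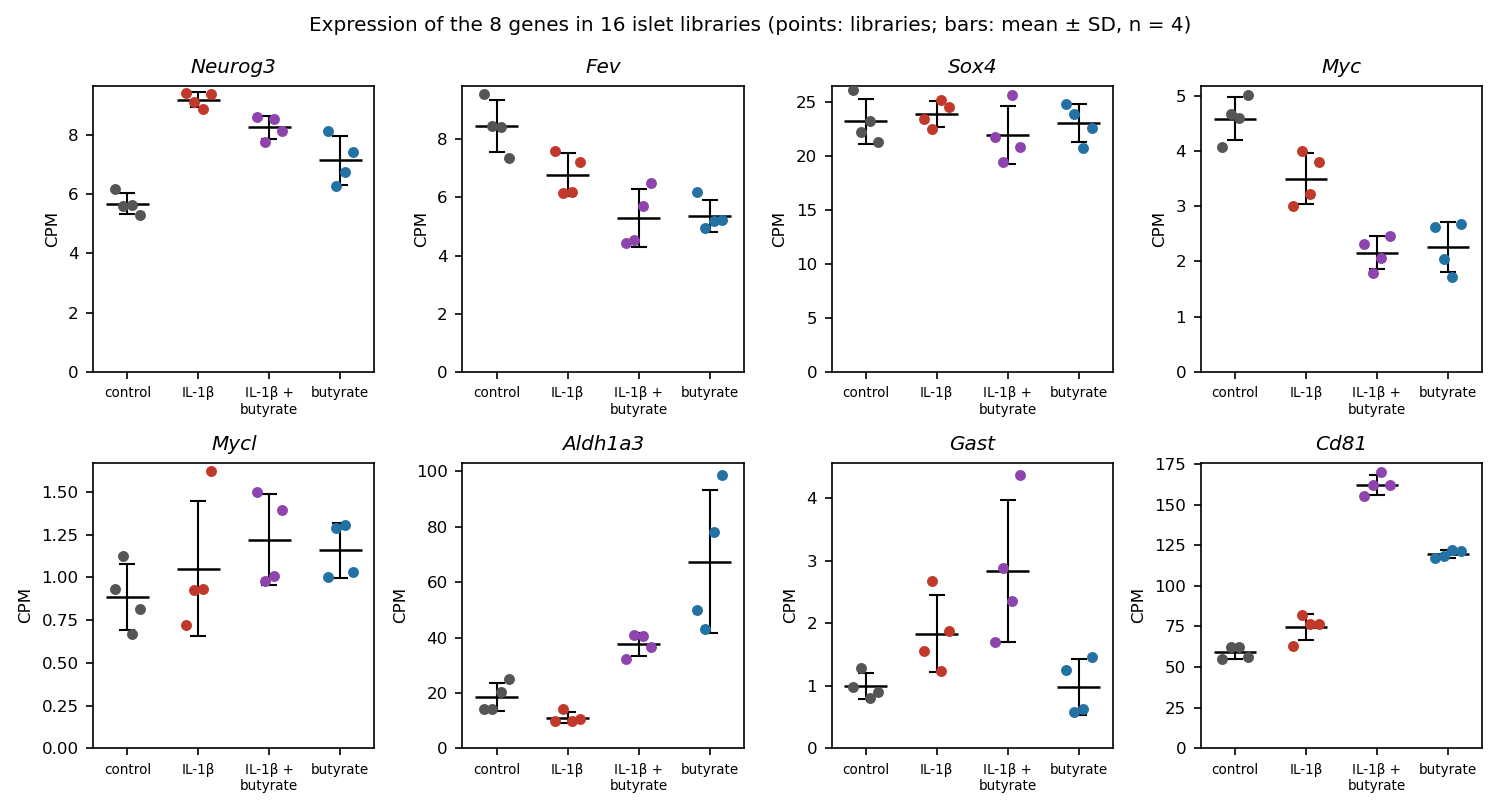
CPM of each gene in the 4 conditions, with 1 point per library and a bar at the mean. *Cd81* and *Aldh1a3* were high in both conditions with butyrate, *Myc* and *Fev* were low there, *Neurog3* was highest with IL-1β, and the groups of *Sox4* and *Mycl* overlapped.

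The 8 genes did not move as a block. With IL-1β against control, 2 of 8 were called, where 17.8% of all tested genes were. Both, *Neurog3* and *Cd81*, were raised, as were 11.2% of all genes, and none was lowered, as were 6.59%. With butyrate against control, 5 of 8 were called, where 19.9% of all genes were. *Aldh1a3*, *Neurog3* and *Cd81* rose, as did 8.53% of all genes, and *Fev* and *Myc* fell, as did 11.4%. With butyrate added to IL-1β, 3 of 8 were called, where 19.5% of all genes were. *Aldh1a3* and *Cd81* rose (8.41% of all genes) and *Myc* fell (11.1%). With the combination against control, 6 of 8 were called, where 30.6% of all genes were, 4 of them raised (15.8%) and 2 lowered (14.8%). With the combination against butyrate alone, 2 of 8 were called, where 14.8% of all genes were, and both, *Gast* and *Cd81*, were raised (9.92%) and none lowered (4.86%). The ranges of the groups did not overlap for 4 of 8 genes with IL-1β against control, where this held for 24.7% of all genes. They did not overlap for 5 with butyrate against control (30.1% of all genes), 4 with the combination against IL-1β (26.9%), 6 with the combination against control (38.5%) and 3 with the combination against butyrate (24.2%). The comparisons share control or treated libraries, so they are not independent of each other. The 8 genes were chosen with earlier results of these data known, so these counts do not test the set. The median log2 fold change of the 8 genes was 0.16 with IL-1β, 0.16 with butyrate and 0.50 with the combination against control, beside -0.03, 0.01 and 0.00 over all tested genes.

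Whether the effect of butyrate differed with and without IL-1β was tested as an interaction. None of the 8 genes was called by edgeR or by DESeq2, where edgeR called 0.0968% of all tested genes, 0.043% raised and 0.0538% lowered. At an unadjusted p under 0.05, edgeR gave 1 gene, *Neurog3* (p 0.000669, FDR 0.122), with an interaction of -0.49 (SE 0.13) on the log2 scale.

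**Figure D3:**
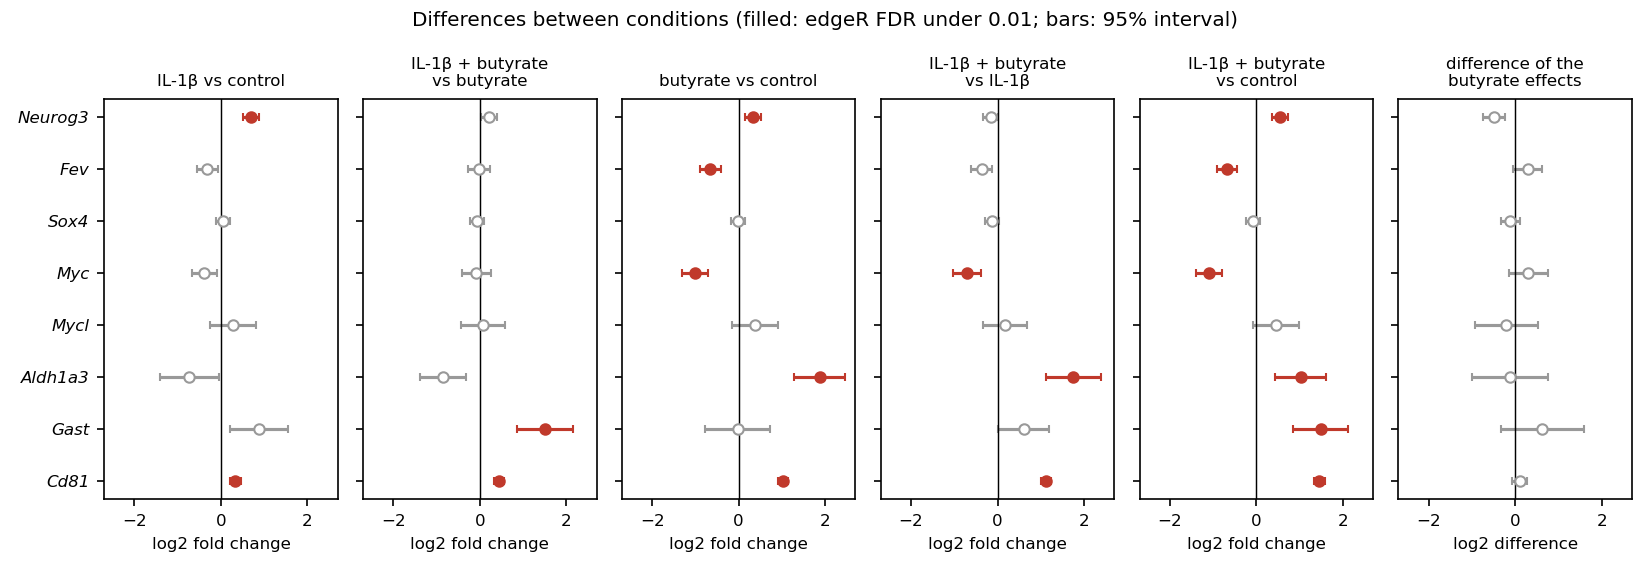
Log2 fold change of the 8 genes in each comparison, with 95% intervals, and filled points where FDR was under 0.01. The intervals of *Sox4* lie close to 0 in every comparison, and those of *Gast*, *Aldh1a3* and *Mycl* are the widest. *Aldh1a3* has the highest value, 1.87 with butyrate.

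Related genes were taken from lists of the same pathways, without the 8 genes themselves. Of 27 endocrine progenitor and lineage factors, 25 were tested. IL-1β raised 5 of them (median log2 fold change 0.03, against -0.03 over all genes). *Neurod1*, a direct target of NEUROG3, rose by 0.41 (FDR 2.28e-05) and *Isl1*, a factor of all islet endocrine cells, by 0.40 (FDR 1.33e-06). Butyrate raised none of the 25 and lowered 2, *Isl1* with a log2 fold change of -0.38 (FDR 4.12e-06) and *Rfx6* with -0.15 (FDR 0.00857). *Neurog3* itself was raised in both comparisons. Of 8 pluripotency factors only 3 had enough reads to be tested, and *Klf4* was raised by IL-1β (0.46, FDR 0.00164) and lowered by butyrate (-0.91, FDR 2.22e-06). Of 11 beta cell maturity genes, IL-1β lowered 8 and raised 1, with *Ucn3*, a hormone of mature beta cells, at -1.16 (FDR 8.74e-16) and *Mafa*, a beta cell transcription factor, at -0.84 (FDR 0.00337). Butyrate alone raised 3 and lowered 1 of these, *Ucn3* (-0.28, FDR 0.000115). Added to IL-1β, butyrate lowered 2, *Mafa* (-0.77, FDR 0.0062) and *Ins1* (-0.40, FDR 6.28e-05), and raised 1, *Foxo1* (0.28, FDR 0.000126). Against control, the combination lowered 8 and raised 2 (median log2 fold change -0.67).

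Around *Aldh1a3*, 11 of 19 retinoid enzymes and receptors were tested. Butyrate raised 3 and lowered 1: *Aldh1b1*, a mitochondrial aldehyde dehydrogenase, had a log2 fold change of 0.42 (FDR 0.00153), *Rara*, a retinoic acid receptor, 0.42 (FDR 0.000261), and *Rdh10*, which makes retinaldehyde from retinol, -0.39 (FDR 0.000239). All were smaller than the 1.87 of *Aldh1a3*. IL-1β raised 2 and lowered none, led by *Dhrs3*, which turns retinaldehyde back to retinol, at 1.38 (FDR 7.53e-07).

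Around *Myc*, the 11 partners of its network, *Mycn*, MAX and MXD proteins among them, were all tested. Butyrate lowered 5 and raised none, with *Mxd1* at -0.52 (FDR 8.47e-07) and *Mxd4* at -0.30 (FDR 1.95e-06), both antagonists of MYC. *Mycn*, the closest relative of *Myc* in this list, was low, with 12 to 64 counts per library. Its mean was 1.11 ± 0.097 CPM in control, 0.856 ± 0.19 with IL-1β, 1.97 ± 0.53 with the combination and 1.47 ± 0.12 with butyrate (SD, n = 4 each). It was raised in the combination against IL-1β (log2 fold change 1.2, FDR 0.000113) and against control (0.83, FDR 0.00187), where *Myc* was lowered. Of 16 MYC target genes butyrate lowered 3 and raised none, with *Srm*, the spermidine synthase, at -0.35 (FDR 2.3e-05) and *Cad*, of pyrimidine synthesis, at -0.31 (FDR 0.000647). The median of the 16 was -0.06, beside 0.01 over all genes. With IL-1β, 5 targets were lowered and 1 was raised, *Odc1*, the first enzyme of polyamine synthesis, at 1.85 (FDR 1.65e-16), beside -0.38 for *Myc*. *Odc1* was also the only gene of these lists called in the interaction (0.52, FDR 0.00976).

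Around *Gast*, 6 of 9 genes of the gastrin and CCK system were tested. IL-1β raised 3 and lowered 2 of them. *Pcsk1* (0.72, FDR 8.65e-10), *Cpe* (0.45, FDR 1.51e-06) and *Pam* (0.33, FDR 1.06e-05), enzymes that process prohormones, were raised. *Pcsk2*, another such enzyme (-0.21, FDR 0.00272), and *Tpst2*, a tyrosine sulfotransferase (-0.15, FDR 0.00858), were lowered. Butyrate alone lowered 4 and raised 1: *Pcsk1* (-0.33, FDR 0.000197), *Pam* (-0.32, FDR 1.94e-05), *Cpe* (-0.28, FDR 0.000859) and *Pcsk2* (-0.26, FDR 0.000288) were lowered and *Tpst2* (0.14, FDR 0.00904) was raised. The markers of epsilon and enteroendocrine cells stayed low, with a summed level of 1.05 to 10.7 CPM over all libraries, the highest in the combination, and 2 of 5 tested and none called. Around *Fev*, 13 of 14 serotonin genes were tested. Butyrate lowered 2 of them, *Slc18a1*, a vesicular monoamine transporter (-0.84, FDR 8.95e-11), and *Ddc*, the decarboxylase that makes serotonin (-0.46, FDR 2.4e-07), and raised 1, while IL-1β raised 4 and lowered 1. The tryptophan hydroxylases *Tph2* (2.19, FDR 2.3e-10) and *Tph1* (3.36, FDR 8.12e-06) were among those raised, *Tph1* at only 0 to 16 counts per library.

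Around *Cd81*, 15 of 16 tetraspanins and CD81 partners were tested. IL-1β raised 10 and lowered none, with *Cd9* at 2.47 (FDR 1.81e-18) and *Cd82* at 1.81 (FDR 8.62e-15). *Cd81* itself rose less, by 0.34. Butyrate raised 3 and lowered 3, with *Cd151* at 0.70 (FDR 2.89e-10) and *Cd82* at -0.34 (FDR 0.00141), beside 1.02 for *Cd81*. In the presence of IL-1β, butyrate lowered *Cd9* (-0.79, FDR 5.33e-09) where *Cd81* rose by 1.12. Around *Sox4*, IL-1β raised and lowered none of 7 tested SOX genes, and butyrate raised 1, *Sox6* (0.74, FDR 0.000456). Around *Neurog3*, all 15 Notch pathway genes were tested, a pathway that restrains NEUROG3. IL-1β raised 3 and lowered 3, with the ligand *Jag1* at 1.17 (FDR 3.39e-10) and the receptor *Notch3* at -0.80 (FDR 0.000853).

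**Figure D4:**
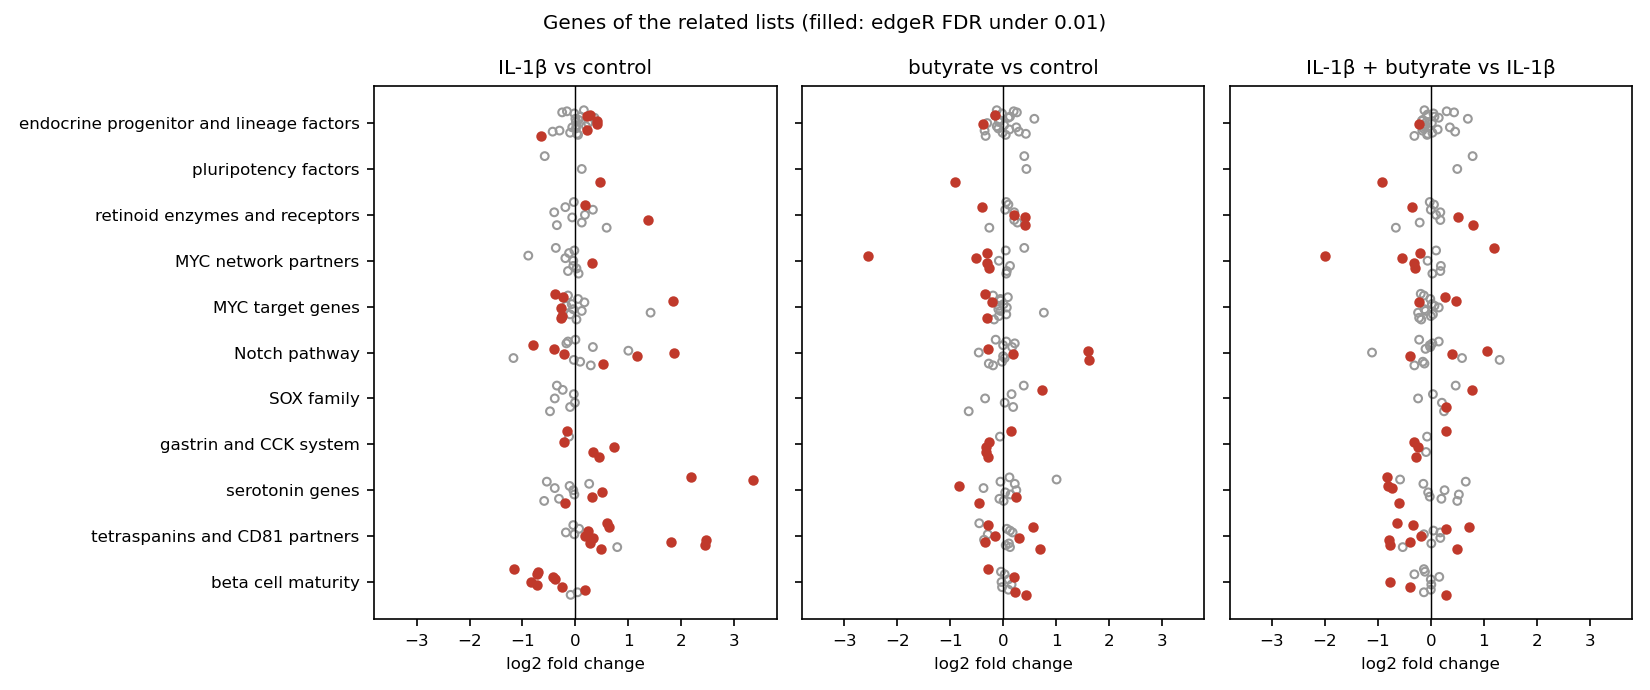
Log2 fold change of the tested genes in each related list, by comparison, with filled points where FDR was under 0.01. The tetraspanins had the most raised genes with IL-1β, 10 of 15, and the beta cell maturity list the most lowered, 8 of 11.

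Genes with the pattern most like that of each of 6 genes were found by the root mean square distance between log2 levels over the 16 libraries, each centred on its mean. Nearest to *Neurog3* were *Spry2* (0.0873), *Eps8l2* (0.109) and *Lrch2* (0.11), where the median gene lay at 0.36. Nearest to *Cd81* were *Esyt3* (0.126), *Stmn3* (0.131) and *Defb1* (0.135), with a median of 0.624. Nearest to *Myc* were *Ncapd2*, a condensin subunit (0.184), *Cdc7*, a replication kinase (0.19), and *Mcm4*, a subunit of the replicative helicase (0.192), with a median of 0.536. *Aldh1a3* lay nearest to *Th*, the tyrosine hydroxylase, at 0.387, a larger distance (median 1.03), and *Gast* to *Stra6l* at 0.379 (median 0.777), while *Fev* lay nearest to *Zfp101* at 0.123 (median 0.393).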

How the data were processed

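RNA from cultured islets was made into libraries with the NEBNext Ultra II kit and sequenced single-end. Per the submitters' processing notes, reads were mapped to GRCm38 with STAR 2.5.3a, and the authors deposited whole-number counts per Ensembl gene for 16 libraries, not normalized. The counting program, annotation release and strand setting are not given in the sources used here. Genes were matched by identifier to GENCODE M21, which placed 52489 of 52636.

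Counts were filtered with filterByExpr, scaled by TMM and fitted with edgeR 4.0.16 (R 4.3.3, robust quasi-likelihood) in 1 model of 4 groups. SE is the absolute log2 fold change divided by the square root of F. FDR is the Benjamini-Hochberg adjusted p over 18587 genes. The scripts were tested on simulated data. Alternatives were DESeq2 1.42.0, other scalings, filters and thresholds, a replicate block, and each library left out. Of the related lists, up to 3 called genes with the largest change per comparison with an average log2 CPM of at least 1 could be named, and direct relatives of the 8 genes. The 8 genes and the lists were chosen with earlier results of these data known. *Tph1*, *Pcsk2*, *Tpst2*, the macrophage genes and the duct genes were named after their values were seen. The number of lineage factors lowered by IL-1β is not reported here.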

Additional observations from a re-analysis of the deposited data

Results flagged for a closer look

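*Neurog3* stood out because its libraries with butyrate lay above those without it in the absence of IL-1β and below them in its presence. All 4 butyrate libraries were above all control libraries (7.15 ± 0.819 against 5.67 ± 0.356 CPM, SD, n = 4), and all 4 libraries with IL-1β and butyrate were below all IL-1β libraries (8.26 ± 0.391 against 9.19 ± 0.258 CPM). The interaction was -0.49 on the log2 scale, and edgeR's quasi-likelihood test of it did not pass the threshold (FDR 0.122). Nor did the difference between the combination and IL-1β alone (log2 fold change -0.15, FDR 0.184). None of the 32 sets of 4 libraries, 8 genes in 4 conditions, held a library far from its others by Dixon's criterion at the 95% level.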

How the results depend on the processing

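Of 48 results, 8 genes in 6 comparisons, 18 were called, and 15 of these kept call and direction in all 24 alternatives. The other 3 calls, *Neurog3* with butyrate, *Aldh1a3* with the combination against control and *Gast* with the combination against butyrate, were lost in some, and no called result changed sign. At an adjusted p under 0.05, IL-1β against control gave 4 calls in place of 2 (*Fev* and *Myc* added), and fitting only the libraries compared gave 1 call in place of 2 for the combination against butyrate. Leaving out 1 library at a time gave 2 to 2 calls for IL-1β, 3 to 4 for the combination against IL-1β, 4 to 5 for butyrate, 5 to 6 for the combination against control, 2 to 3 for the combination against butyrate and 0 to 0 for the interaction. Sign changes arose in 9 results that were never called. With upper-quartile scaling *Sox4* and *Gast* with butyrate were 0.04 and 0.03, and with library size alone *Sox4*, *Fev* and *Myc* in the combination against butyrate were 0.03, 0.07 and 0.02 (log2). With 1 library left out, *Mycl* with IL-1β ranged from -0.03 to 0.44, *Sox4* with butyrate from -0.05 to 0.05 and *Gast* from -0.30 to 0.17. In the combination against butyrate *Fev* ranged from -0.14 to 0.05, *Myc* from -0.18 to 0.01 and *Mycl* from -0.05 to 0.17, and in the interaction *Aldh1a3* from -0.30 to 0.13 and *Mycl* from -0.36 to 0.11. The cause of these changes was not tested. Without the filter on low counts, *Gast* with IL-1β (adjusted p 0.00121) and *Fev* in the combination against IL-1β (0.00742) were called. *Neurog3* with butyrate (0.0305) and *Aldh1a3* in the combination against control (0.0203) then lost their calls. Library size alone called *Neurog3* in the combination against butyrate (0.00969).

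The paper describes 4 independent experiments, and neither its methods nor the labels say whether a replicate number marks one of them. Deviations from the condition means correlated at 0.0535 to 0.397 (median 0.118) between libraries with the same number. The median was -0.0404 for other numbers. Of 24 same-number pairs 17 were over 0.1, and 13 of 16 libraries correlated best with their own number. A pairing by number is therefore possible, and the main fit held no replicate block. Over all genes the block gave 4537 calls for IL-1β against control, where the main fit gave 3311. With a replicate block the calls among the 8 genes were 3, 4, 5, 6, 2 and 0 in the 6 comparisons above, in the order IL-1β, combination against IL-1β, butyrate, combination against control, combination against butyrate and interaction, with *Gast* (0.00968) and *Fev* (0.00788) added. Over all genes the share of calls that were raised moved with scaling, for IL-1β from 63% to 51.5% with upper-quartile scaling and 79.8% with library size alone. It moved from 43.1% to 57.7% for the combination against IL-1β and from 42.9% to 58.5% for butyrate with upper-quartile scaling, from 51.6% to 66.9% for the combination against control with library size alone, and from 67.1% to 53.2% and 87.5% for the combination against butyrate with these scalings. For the interaction, with 18 calls, it moved from 44.4% to 55.6% with library size alone. The interaction called 18 genes, against 52 with DESeq2, 95 without the filter and 132 with the block. Depth limits *Gast* (12 to 91 counts) and *Mycl* (14 to 45 counts) most.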
